A study of Mus musculus with 4 samples.

Results

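The Onecut family of transcription factors was examined in RNA-seq of E13.5 mouse retinas with a conditional deletion of the gene for the transcription factor Nrf1. The family is *Onecut1*, *Onecut2* and *Onecut3*, and its members were taken by gene symbol, 3 of the 24062 genes in the count table. The WT group held 2 libraries of wild type retinas, and the Nrf1-CKO group held 2 libraries of *Nrf1f/f;Six3-Cre* retinas, all at E13.5 and all on a mixed C57BL/6 and 129 background. In the Nrf1-CKO embryos both alleles of *Nrf1* carry loxP sites around exon 4, and a *Six3-Cre* transgene, which acts in the progenitor cells of the central retina, removes that exon. The deletion therefore does not cover every cell of the tissue. The study asked which genes depend on Nrf1 in the developing retina. Each library was made from the pooled retinas of several littermates, so the spread between 2 libraries is a spread between pools, and what the wild type embryos carried at the *Nrf1* and *Six3-Cre* loci is not given in the sources used here.

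Onecut proteins bind DNA through a single cut domain followed by a homeodomain. In the embryonic mouse retina they are present in retinal ganglion cells (RGCs), in horizontal cells and in precursors of cones, the early-born cell types. *Onecut1* and *Onecut2* are known for overlapping roles in the genesis of these cells, and horizontal cells depend on *Onecut1* most strongly. Nrf1 (nuclear respiratory factor 1) is a factor that binds a palindromic, CG-rich sequence in the promoters of many genes, among them genes of mitochondrial function.

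Depth was 74577660 to 85933945 reads counted on genes per library. Over the 15762 tested genes, the libraries of 1 genotype differed by more than counting noise. *Nrf1* itself had 9052 and 7789 reads in WT and 8594 and 8284 in Nrf1-CKO, a log2 fold change of -0.03 (SE 0.07, adjusted p = 0.794 by edgeR's quasi-likelihood test with Benjamini-Hochberg adjustment), and this count over the whole gene includes the exons that the deletion leaves in place, so it checks the labels only weakly. Lens markers stood apart between the groups. The summed level of 8 of them was 133 and 370 CPM (reads scaled to the size of the library) in WT against 7777 and 3169 CPM in Nrf1-CKO. All 8 were called higher, beside 12.8% of all tested genes.

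All 3 Onecut genes were lower in the Nrf1-CKO retinas. *Onecut3* fell the most, to 22.4% ± 12.1 of its WT level (SD, n = 2), *Onecut2* fell to 55.7% ± 16.3, and *Onecut1* fell to 63.6% ± 5.87. A gene was called when its fold change was at least 1.4 with an adjusted p of at most 0.2 in edgeR's quasi-likelihood test, the thresholds of the study. Of all tested genes, 8.04% were called lower and 12.8% higher, and all 3 members were among those called lower. At an adjusted p of at most 0.05, where 6.59% of tested genes were lower, all 3 were still called. For each member both Nrf1-CKO libraries lay below both WT libraries, which was so for 31.6% of all tested genes, while 30.9% had both above. In bulk tissue, fewer cells of a type and less RNA per cell cannot be told apart, and this holds for every value below.

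*Onecut1* lies on chromosome 9 of GRCm38, at chr9:74861921-74891781 on the plus strand, with 2 exons around an intron of 25904 bases. It encodes a protein of 465 amino acids, and its 3′ UTR makes up 55.2% of the transcript. A promoter sequence was found in RefSeq for *Onecut1* and was not found in that table for *Onecut2* and *Onecut3*. The 250 bases before its start site are printed here because they hold a match to the sequence that Nrf1 itself binds, and the capitals mark that match.
Onecut1 (RefSeq, GRCm38.p6, chr9:74861671-74861920, plus strand): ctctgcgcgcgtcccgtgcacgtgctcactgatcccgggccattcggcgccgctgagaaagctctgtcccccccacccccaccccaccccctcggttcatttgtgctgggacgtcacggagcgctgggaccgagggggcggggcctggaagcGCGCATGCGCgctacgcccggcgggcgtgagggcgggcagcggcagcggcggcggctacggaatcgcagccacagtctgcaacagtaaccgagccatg
The match, GCGCATGCGC, is GCGCA followed by its reverse complement, so it reads the same on both strands. It lies at chr9:74861823-74861832, between 98 and 89 bases before the start site. The 250 bases are 71.6% G and C, above 92.7% of the 32851 promoter sequences, whose median is 52.4%.

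The promoter windows, 250 bases before to 50 bases after each start site, were searched on both strands for 3 short sequences. GCGCATGCGC was present in 1.07% of the 27025 genes with a promoter sequence and in 2.06% of the tested genes among them. It was present in 4.16% of the 889 genes called lower, of which *Onecut1* is one, in 0.344% of the 1455 genes called higher and in 2.13% of the 9258 genes that were not called. These shares are a description, since base composition also differs between promoters, and their relation to it was not tested. The shorter TGCGCA, in which GCGCA overlaps its own reverse complement, also reads the same on both strands. It was not in the *Onecut1* window and was in 8.79% of all genes. It was in 14.8% of the tested genes, 22.6% of those called lower, 5.91% of those called higher and 15.4% of those not called. ATCAAT, a core sequence bound by Onecut factors, was not in the *Onecut1* window and was in 8.63% of all genes. Among tested genes it was in 5.03%, with 6.19% of those called lower, 6.39% of those called higher and 4.71% of those not called. TGCGCA shares its first 5 letters with the last 5 of the longer sequence but is not contained in it. Those 5 letters also stand near the start of the printed *Onecut1* sequence, outside the marked match. A match does not show that a factor was bound.

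*Onecut1*, the member on which horizontal cells depend most, had 28.0 and 34.3 CPM in the WT libraries (2452 and 2545 reads) and 21.1 and 18.5 CPM in the Nrf1-CKO libraries (1754 and 1533 reads). The WT libraries differed from each other by about as much as the closest pair across genotypes, but the groups did not overlap. The mean went from 31.2 ± 4.46 to 19.8 ± 1.83 CPM (SD, n = 2), a log2 fold change of -0.65 (SE 0.12, 95% interval -0.94 to -0.37, adjusted p = 0.00588 from edgeR). This is 1.57-fold lower, and 1185 tested genes (7.52%) had a lower log2 fold change. When the test asked for a change beyond 1.4-fold rather than any change (glmTreat in edgeR), *Onecut1* was no longer called, with an adjusted p of 0.259. The gene overlaps *Gm20649*, a noncoding gene on the same strand, which was not in the count table.

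*Onecut2* lies on chromosome 18 of GRCm38, at chr18:64340020-64400987 on the plus strand, with 2 exons around an intron of 44734 bases. It encodes 505 amino acids, but its transcript runs to 16234 bases, of which 88.4% are 3′ UTR. In the plot of the transcripts to scale, this grey stretch is what makes *Onecut2* the longest of the family, while the coding parts are of similar length. *Onecut2* had 190 and 206 CPM in the WT libraries (16604 and 15263 reads) and 133 and 87.3 CPM in the Nrf1-CKO libraries (11042 and 7224 reads). It had the most reads of the family in every library. Both WT values were close together, while the Nrf1-CKO libraries stood further apart, with replicate 2 the lower. The mean went from 198 ± 11.4 to 110 ± 32.2 CPM, a log2 fold change of -0.84 (SE 0.16, 95% interval -1.22 to -0.47, adjusted p = 0.00655 from edgeR), which is 1.80-fold lower. Without Nrf1-CKO replicate 2 the log2 fold change was -0.57 and without replicate 1 it was -1.18, and the call held in both.

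**Figure D1:**
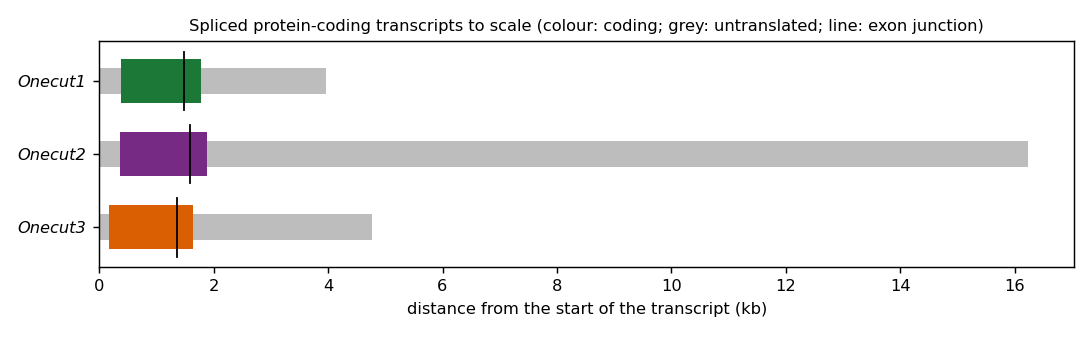
Spliced protein-coding transcripts of *Onecut1*, *Onecut2* and *Onecut3* from GENCODE, drawn to scale in kilobases from the transcript start, with coding sequence in colour, untranslated sequence in grey and a line at the exon junction. The coding lengths are 1395, 1515 and 1470 bases, and the 3′ UTR is 2183, 14356 and 3130 bases long.

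*Onecut3* lies on chromosome 10 of GRCm38, at chr10:80494835-80517276 on the plus strand, with 2 exons around an intron of 17666 bases, and encodes 490 amino acids. The study listed *Onecut3* among the lower genes of these same libraries, so its direction here is not independent evidence. It had 9.05 and 10.3 CPM in the WT libraries (793 and 767 reads) and 3.0 and 1.34 CPM in the Nrf1-CKO libraries (249 and 111 reads). The Nrf1-CKO libraries differed more from each other, in proportion, than in the other two members, and both lay far below the WT libraries. The mean went from 9.70 ± 0.909 to 2.17 ± 1.17 CPM, a log2 fold change of -2.16 (SE 0.32, 95% interval -2.88 to -1.43, adjusted p = 0.0016 from edgeR). This is 4.47-fold lower, and 108 tested genes (0.685%) had a lower log2 fold change. On the normalized log2 values that the authors deposited, *Onecut3* was at 10.27 and 10.39 in WT and 9.43 and 9.02 in Nrf1-CKO, a difference of -1.11, nearer to that of *Onecut2* on the same values (-0.83). A gene model of open coding status, *2610034O05Rik*, overlaps *Onecut3* on the same strand and was not in the count table.

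**Figure D2:**
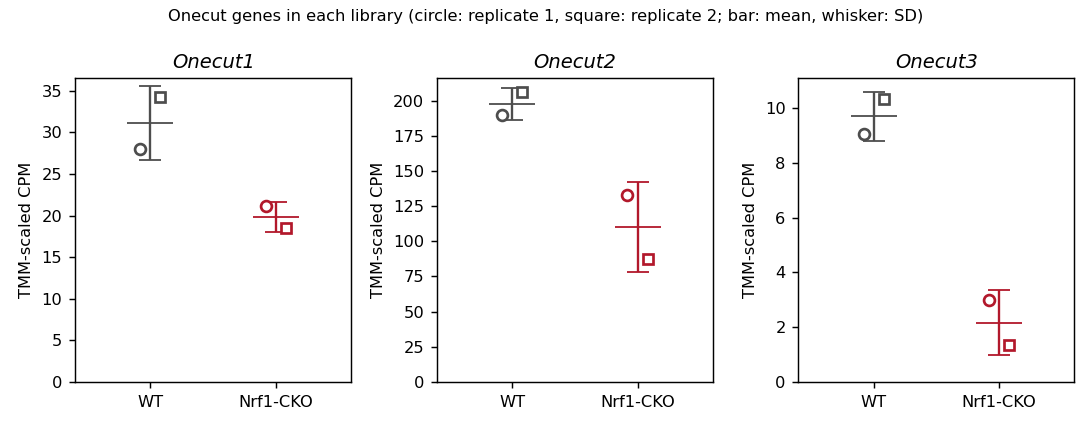
Level of each Onecut gene in every library, in TMM-scaled CPM on a linear axis that starts at 0, with WT in grey and Nrf1-CKO in red, circles for replicate 1 and squares for replicate 2, a bar for the mean and whiskers for the SD (n = 2). In each gene both Nrf1-CKO libraries lie below both WT libraries, and Nrf1-CKO replicate 2 is the lower of its pair.

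The 3 genes were then set against each other within a library, where the scaling of the library drops out. The log2 ratio of *Onecut3* to *Onecut1* reads was -1.63 and -1.73 in WT and -2.81 and -3.78 in Nrf1-CKO, a difference of -1.62. For *Onecut3* to *Onecut2* it was -4.39 and -4.31 in WT and -5.47 and -6.02 in Nrf1-CKO, a difference of -1.39. In both ratios the groups did not overlap, so *Onecut3* lost more of its reads than either other member in these libraries. The log2 ratio of *Onecut2* to *Onecut1* was 2.76 and 2.58 in WT and 2.65 and 2.24 in Nrf1-CKO, a difference of -0.23 with overlapping groups. Over the 3 pairs, the exact permutation test (two-sided) gave p = 0.333, 0.333 and 0.667 (adjusted 0.5, 0.5 and 0.667), and 0.333 is the smallest p that 2 against 2 libraries allow. This test could therefore not pass 0.05 for any pair in this design.

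Levels were compared between genes per kilobase of exon, since longer transcripts collect more reads. The order was *Onecut2*, *Onecut1*, *Onecut3* in every library. In CPM per kb of exon, *Onecut2* was at 12.2 ± 0.705 in WT and 6.78 ± 1.99 in Nrf1-CKO, *Onecut1* at 7.57 ± 1.09 and 4.82 ± 0.444, and *Onecut3* at 2.03 ± 0.190 and 0.454 ± 0.245 (SD, n = 2). *Onecut2* was between 1.19 and 1.72 times *Onecut1* across the 4 libraries, and in Nrf1-CKO replicate 2 this gap, 5.38 against 4.50, was smaller than the SD of *Onecut2* in that group. The choice of length matters for this pair, because per kb of coding sequence the level of *Onecut2* was 4.34 to 6.24 times that of *Onecut1*. *Onecut1* was between 3.59 and 16.0 times *Onecut3* per kb of exon. Together the family had 21.8 ± 1.98 CPM per kb of exon in WT and 12.1 ± 2.68 in Nrf1-CKO. The share of *Onecut3* in that sum was 9.30% and 9.34% in WT and 4.50% and 2.76% in Nrf1-CKO. The share of *Onecut2* was 57.3% and 54.7% in WT and 58.7% and 52.9% in Nrf1-CKO, which overlap, and that of *Onecut1* was 33.4% and 36.0% against 36.8% and 44.3%.

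**Figure D3:**
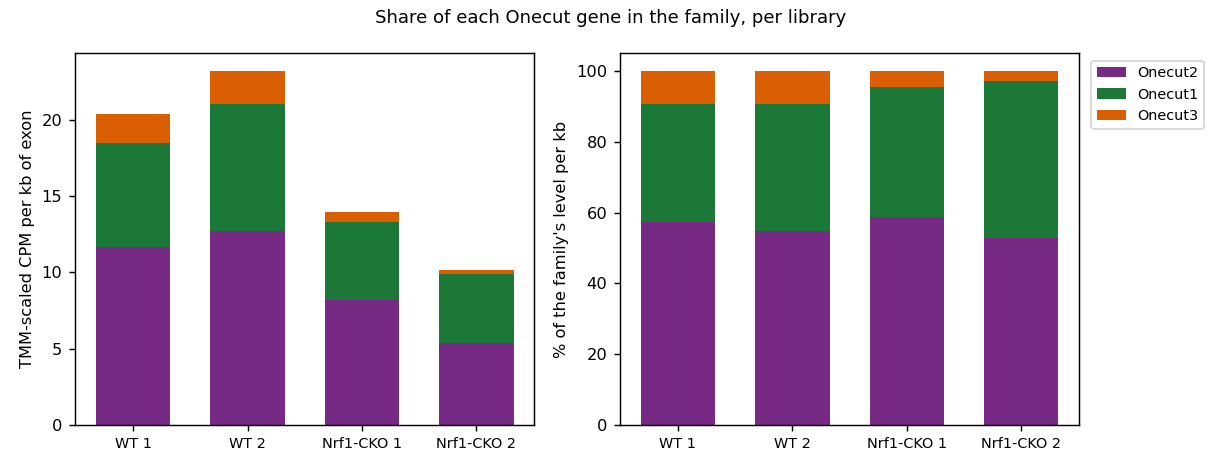
Left, TMM-scaled CPM per kb of exon for *Onecut2* (purple), *Onecut1* (green) and *Onecut3* (orange), stacked for each library. Right, the same values as a percentage of the family's sum, in which *Onecut3* goes from 9.30% and 9.34% in WT to 4.50% and 2.76% in Nrf1-CKO.

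Genes of the cell types in which Onecut factors are found were taken as fixed lists. Of 17 RGC transcription factors, 13 were called lower and none higher, beside 8.04% and 12.8% of all tested genes, and the median of their log2 fold changes was -1.17 against 0.00073 over all tested genes. The study had listed 10 of the 13 in print, and its printed list does not hold every gene it found lower. All 13 come from these same libraries, so this count is not independent evidence of the direction. On the counts, *Onecut3* lies within the range of the RGC factors with the largest differences. *Pou4f3*, a POU factor of late RGC differentiation, had a log2 fold change of -3.48 (SE 0.51), *Myt1l*, a zinc-finger factor of neurons, -2.51 (SE 0.28), and *Pou4f1*, another POU factor of RGCs, -1.84 (SE 0.18). *Onecut1* and *Onecut2* lie nearer to *Pou4f2*, a POU factor of early RGCs, at -0.97 (SE 0.09), *Eya2*, a transcriptional coactivator, at -0.72 (SE 0.09), and *Dlx1*, a homeobox gene, at -0.66 (SE 0.08). *Atoh7*, which makes progenitors competent to become RGCs, was not called, at -0.29 (SE 0.14, adjusted p = 0.175 from edgeR), and it depended on the WT library, since it was called without WT replicate 1, at -0.51, and was at -0.033 without WT replicate 2. On the deposited log2 values, *Pou4f3* was at -0.75 and *Myt1l* at -1.38, still called, while *Pou4f1* was at -1.39, so the order of these genes and *Onecut3* (-1.11) by size holds for the counts only. Without Nrf1-CKO replicate 1 the median of the list was -1.43.

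Horizontal and amacrine cell genes were called in both directions. Of 11 genes, 3 were called lower, 2 higher and 6 were not called, beside 8.04% lower and 12.8% higher over all tested genes, and their median log2 fold change was -0.13. *Ptf1a*, the bHLH factor needed for horizontal and amacrine cells, had 541 and 516 reads in WT and 152 and 61 in Nrf1-CKO, a log2 fold change of -2.35 (SE 0.37, adjusted p = 0.00207 from edgeR). This is close in size to *Onecut3*, as it also was on the deposited log2 values, where *Ptf1a* was at -1.01 and *Onecut3* at -1.11. The homeobox gene *Barhl2*, which acts in amacrine cells and RGCs, fell by 0.99 on the log2 scale (SE 0.11), and *Ptf1a* and *Barhl2* had been listed by the study. *Lhx1*, a LIM homeobox gene of horizontal cells, had only 27 and 26 reads in WT and 9 and 2 in Nrf1-CKO, at -2.29 (SE 0.87). Its call was lost when WT replicate 1, WT replicate 2 or Nrf1-CKO replicate 2 was left out, with adjusted p of 0.245, 0.289 and 0.446 from edgeR, and on the deposited log2 values, where it was at -0.26. *Foxn4*, a winged-helix factor that acts early in horizontal and amacrine cell genesis, differed by -0.09 (SE 0.10) and was not called. *Rorb*, a nuclear receptor gene, at -0.41 (SE 0.10), was not called, and without Nrf1-CKO replicate 1 it was, at -0.54. *Prox1*, a homeobox gene of horizontal cells that is also strongly expressed in lens fibres, rose by 0.73 on the log2 scale (SE 0.16), and *Tfap2a*, an AP-2 factor of amacrine cells that is also expressed in lens, rose by 1.42 (SE 0.52). Both of these lost their call without Nrf1-CKO replicate 1, the library with the highest lens marker sum, at 0.44 and 0.73, and *Tfap2a* also without WT replicate 2, at 0.97, and on the deposited log2 values, at 0.39. The part of lens RNA in these values was not tested. The median of the list was -0.29 without WT replicate 1, -0.25 without Nrf1-CKO replicate 1 and -0.23 without Nrf1-CKO replicate 2, and that count of 2 genes called higher became 1 without WT replicate 2 and 0 without Nrf1-CKO replicate 1.

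Of 8 cone and photoreceptor precursor genes, 3 were called lower and none higher, beside 8.04% and 12.8% of all tested genes, and the median of their log2 fold changes was -0.25. *Rxrg*, a nuclear receptor gene of early cones, had 718 and 785 reads in WT and 416 and 265 in Nrf1-CKO, a log2 fold change of -1.19 (SE 0.23, adjusted p = 0.00653 from edgeR), and it was at -0.67 on the deposited log2 values. *Crx*, a homeobox gene of photoreceptors, was at -0.50 (SE 0.08), and the bHLH gene *Neurod4* also at -0.50 (SE 0.11), both near the 1.4-fold limit. Both lost their call with upper quartile scaling, on the deposited values, without WT replicate 1 and without Nrf1-CKO replicate 2, each of which leaves 1 gene of the list called lower. *Otx2*, which acts upstream in photoreceptor fate, had a log2 fold change of -0.03 (SE 0.08), *Neurod1* -0.06 (SE 0.08), *Prdm1* -0.18 (SE 0.08) and *Thrb*, the thyroid hormone receptor gene of cones, -0.31 (SE 0.08), none of which was called. Of 13 retinal progenitor genes, 3 were called lower and none higher, beside the same 8.04% and 12.8%. They were *Ccnd1* (cyclin D1, log2 fold change -0.88), *Hes5* (a Notch effector, -0.72) and *Fgf15* (a growth factor gene, -0.70), and *Ccnd1* and *Fgf15* had been listed by the study. *Hes5* lost its call without WT replicate 2, at -0.47. The median of the progenitor list was -0.12, and it was -0.22 without WT replicate 1 and -0.18 without Nrf1-CKO replicate 1.

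**Figure D4:**
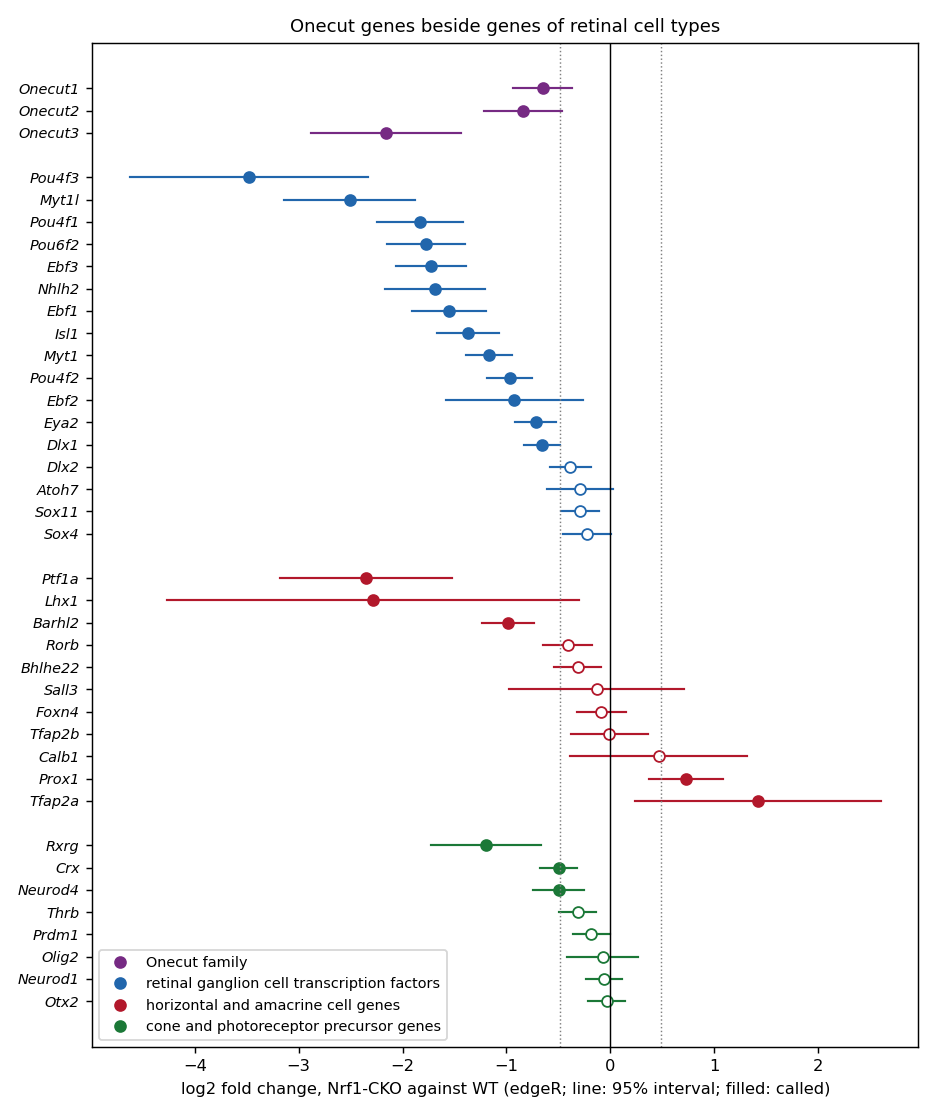
Log2 fold change of Nrf1-CKO against WT from edgeR for the Onecut genes and the genes of 3 lists, with lines for the 95% interval, filled points for called genes, open points for genes not called, and dotted lines at a fold change of 1.4. On these counts *Onecut3* (-2.16) sits among the RGC factors with the largest differences, and *Onecut1* (-0.65) and *Onecut2* (-0.84) among those with smaller ones.

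Markers of other tissues moved with the genotype as well. The counts below stand beside 12.8% of all tested genes called higher and 8.04% called lower. Beside the lens markers, all 5 tested pigment epithelium markers (summed CPM 223 and 161 in WT, 409 and 434 in Nrf1-CKO), all 5 macrophage and microglia markers (54.0 and 49.5 against 158 and 186), 4 of 5 periocular mesenchyme markers (132 and 91.5 against 221 and 195) and 2 of 3 tested erythroid markers (480 and 565 against 622 and 628) were called higher. The erythroid count became 0 without WT replicate 1 and 1 without any one of the other libraries. Of 4 endothelial markers 3 were called higher, and *Kdr*, which retinal progenitors also express, was called lower at -0.55. The endothelial sum, most of it from *Kdr*, did not rise, with 243 and 249 CPM in WT against 241 and 230 in Nrf1-CKO. The medians of the log2 fold changes in these lists were 4.44 for lens, 1.05 for pigment epithelium, 1.73 for macrophages and microglia, 0.76 for mesenchyme, 0.60 for erythroid cells and 1.17 for endothelium. Of 4 tested markers of cranial sensory ganglia, 2 were called lower and none higher, with a median of -1.44 and a sum of 7.95 and 11.3 CPM in WT against 3.06 and 2.38 in Nrf1-CKO. The median of the ganglion list was -0.77 without WT replicate 1, -0.40 without WT replicate 2 and -0.40 without Nrf1-CKO replicate 1. When these markers were left out of the scaling, the log2 fold changes of *Onecut1*, *Onecut2* and *Onecut3* were -0.65, -0.84 and -2.16. That step changes only the scaling factors, and the part of tissue makeup in these differences was not tested.

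The genes whose pattern over the 4 libraries was most like each member were named by the smallest distance between their centred log2 CPM values, among 11325 genes with at least 5 CPM on average. For *Onecut1* these were *Nagk*, *Erc2*, *Cisd1*, *Vat1* and *Basp1*, at distances from 0.064 to 0.075. *Onecut2* was most like *Zfp182*, *Kcnc2*, *Xpa*, *Zkscan2* and *Zfp941*, at 0.069 to 0.115. *Onecut3* was most like *Disp2*, *Scn3b*, *Scn9a*, *Mapt* and *Ncan*, at 0.142 to 0.238, of which all but *Scn9a* had been listed by the study. With 4 libraries a likeness of this kind is a description only.

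The 3 members stayed lower under every other way of processing that was tried. With all 4 libraries of counts, the log2 fold change ranged from -0.67 to -0.61 for *Onecut1*, from -0.87 to -0.80 for *Onecut2* and from -2.24 to -2.12 for *Onecut3* over the scalings, filters, thresholds and the replicate block. With each library left out in turn it ranged from -0.79 to -0.50, from -1.18 to -0.57 and from -2.85 to -1.69. The plot of these alternatives shows that leaving out a Nrf1-CKO library moved *Onecut2* and *Onecut3* the most among the fits on counts.

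**Figure D5:**
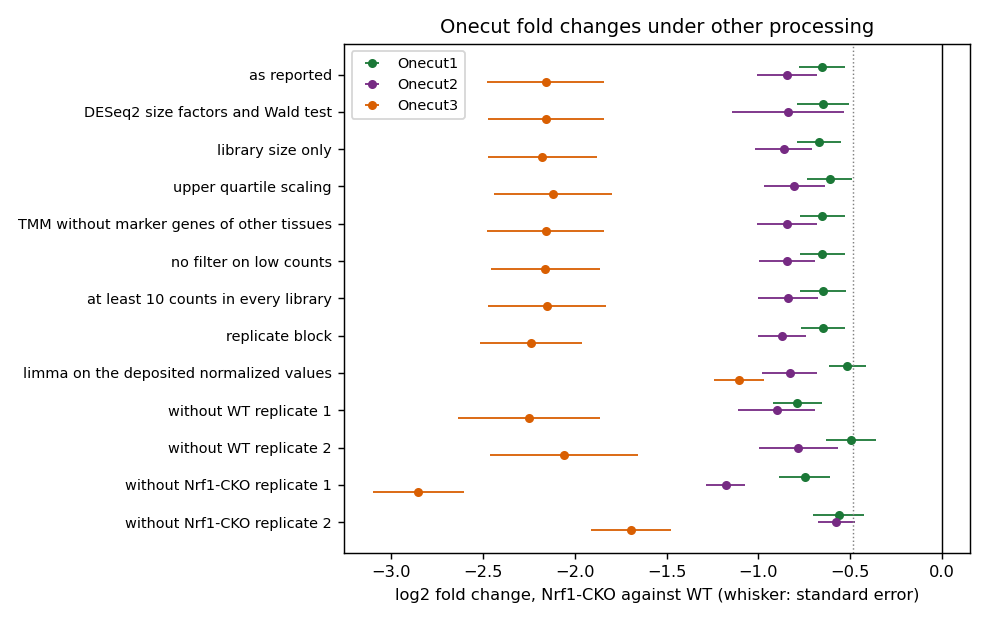
Log2 fold change of Nrf1-CKO against WT for *Onecut1* (green), *Onecut2* (purple) and *Onecut3* (orange) as reported and under each alternative, with whiskers for the standard error and a dotted line at a fold change of 1.4 lower. All points lie below 0, and *Onecut3* lies furthest from 0 in each row, nearest to the others on the deposited normalized values (-1.11).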

How the data were processed

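Total RNA of pooled E13.5 retinas from 2 WT and 2 Nrf1-CKO samples was sequenced. The authors mapped the reads to mm10 with TopHat2 (2.7.2 in their notes), summed them by gene using HTSeq, and deposited whole-number counts, which are the values tested here. They also deposited normalized values on a log2 scale, whose making is not given in the sources used here beyond the tools DESeq and limma in the submitters' notes. The annotation release and the strand setting of the counting are not given in the sources used here. The headers hold empty cells, so the 4 column names, which give genotype and number, were taken in the order written. The 5 summary rows, 74.0 to 75.0% of all entries, mostly reads that did not map uniquely, stayed out of library sizes and tests.

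Counts were filtered with filterByExpr (minimum count 10), which left 15762 genes, scaled with TMM factors and tested in edgeR (4.0.16, under R 4.3.3) by its quasi-likelihood method, with Benjamini-Hochberg adjustment over all tested genes. The biological coefficient of variation was 12%. DESeq2 1.42.0 and limma 3.58.1 served as alternatives, beside other scalings, filters, thresholds, the replicate number as a block and each library left out. Scripts were tested on simulated data. Counting error covers only part of the spread, and PCR copies are not independent molecules. CPM per kb used GENCODE lengths on GRCm38, and promoters came from RefSeq on GRCm38.p6, where 38 of 52 genes (the members and 4 retinal lists) matched. The members, lists and the rule for named genes (the members, list genes, the 5 most alike genes per member and overlapping genes) were chosen with earlier results of these data known. Values of 1 list gene are not given here.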

Additional observations from a re-analysis of the deposited data

How the results depend on the processing

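The 3 members were lower under every alternative tried, and 1 call of a member was lost, that of *Onecut1* with glmTreat against a fold change of 1.4 (-0.65, adjusted p = 0.259 from edgeR). The genes called lower numbered 723 with limma on the deposited values and 743 with glmTreat, and those called higher 945 and 1188, against 1268 and 2024. With the replicate number as a block, the log2 fold changes of *Onecut1*, *Onecut2* and *Onecut3* were -0.65, -0.87 and -2.24. The labels give same-numbered libraries only a shared number. These libraries did not deviate together from their genotype means (r = -0.0079 over genes), which cannot show whether they were prepared together. The block moved the median of the horizontal and amacrine list to -0.092. Per coding length in place of exon length, *Onecut2* was 5.84 times *Onecut1* in WT and 5.12 times in Nrf1-CKO, and *Onecut1* 3.39 times *Onecut3* in WT.

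On the deposited log2 values, medians were -0.086 for horizontal and amacrine genes, -0.92 for RGC factors, 1.35 for macrophages, 0.90 for endothelium, -0.31 for ganglia and 0.26 for erythroid cells, with 1 horizontal and amacrine gene and 0 erythroid genes called higher and 1 cone gene and 1 ganglion gene called lower. With glmTreat, 1 horizontal and amacrine gene and 0 erythroid genes were called higher, 1 cone gene lower and 0 endothelial genes lower. At an adjusted p of at most 0.05, 1 horizontal and amacrine gene and 1 erythroid gene were called higher. With upper quartile scaling the horizontal and amacrine median was -0.090, 1 cone gene was called lower, and the differences of *Nrf1*, *Tfap2b* and *Otx2*, none of them called, turned to 0.0060, 0.032 and 0.0062. With at least 10 counts in every library the ganglion median was -2.27. With each library left out in turn, medians ranged from -0.29 to -0.14 for horizontal and amacrine genes, -1.43 to -1.06 for RGC factors, -0.22 to -0.14 for progenitor genes, 0.93 to 1.36 for pigment epithelium, 1.11 to 1.24 for endothelium, 0.55 to 1.02 for mesenchyme, -1.31 to -0.40 for ganglia and 0.39 to 0.84 for erythroid cells. Called genes ranged from 0 to 2 (horizontal and amacrine, higher), 1 to 3 (cone, lower) and 0 to 1 (erythroid, higher). Of genes that were not called, *Sall3* ranged from -0.49 to 0.34, *Foxn4* from -0.23 to 0.048, *Tfap2b* from -0.25 to 0.20, *Olig2* from -0.23 to 0.11 and *Otx2* from -0.088 to 0.019. The cause of these changes was not tested, except that the ganglion median at 10 counts rests on fewer tested genes.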
